A study of Mus musculus with 6 samples.

Results

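Ddah2 and 9 other genes of arginine metabolism were compared between mouse liver tumour cell lines labelled Myc_Utx and Myc_p53. The members were chosen by name, and were found as the rows of the count table that carry the symbols Ddah1, Ddah2, Arg1, Arg2, Ass1, Asl, Nos2, Odc1, Prmt1 and Oat, which are 10 of its 53465 genes. Ddah2 was chosen because it is one of the strongest drops in this same comparison, so its values are described here and not tested. The study asked which transcripts differ between liver tumour cells that lost Kdm6a, which encodes a histone demethylase also called Utx, and tumour cells that lost p53. RNA of 6 cell lines was sequenced, 3 with the genotype Myc_Utx (2A, 2B and 2D) and 3 with the genotype Myc_p53 (1, 2 and 3), all of the strain C57BL/6.

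The tumours were raised in female mice 8 weeks of age by tail vein injection of a transposon carrying MYC together with a plasmid for Cas9 and a guide RNA against the gene to be lost. The lines are described as independent and tumour-derived, and whether each came from its own mouse was not given in the sources used here. They were grown on collagen, and were passaged until no other cell types were seen, as the methods of the study describe. MYC was therefore delivered in both groups, both were cut by Cas9, and neither group is an unedited control. A difference between the groups can come with the loss of Kdm6a or with the loss of p53, and these cannot be told apart. Kdm6a had a normalised level of 44.8 ± 4.72 CPM (read counts scaled to a common library size; mean ± SD, n = 3) in Myc_Utx and 58.8 ± 14.4 CPM in Myc_p53 lines, with overlapping groups and an adjusted p of 0.243 (edgeR), so the level of this transcript does not separate the labels. A small deletion or insertion left by Cas9 need not lower a transcript, and reads over the cut site were not analysed here. The study reports such mutations in Kdm6a and loss of Kdm6a protein in cell lines from its Kdm6a-targeted tumours. Whether those were the lines sequenced was not given in the sources used here. Total counts ran from 4656103 to 6937497 per line. Markers of hepatocytes were low in all lines, with a summed level of 4.01 to 9.55 CPM over 12 genes in Myc_Utx and of 6.67 to 31.8 CPM in Myc_p53 lines, and 1 of the 12 passed the filter on low counts. Arg1 is on that list as well as a member here, and Alb, the albumin gene, had 4 to 26 counts per line.

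Arginine is made from citrulline and aspartate by argininosuccinate synthase (Ass1) and argininosuccinate lyase (Asl). It is split to ornithine and urea by the arginases (Arg1 and Arg2), and turned into nitric oxide and citrulline by nitric oxide synthases, of which Nos2 is the inducible form. Ornithine feeds the polyamines through ornithine decarboxylase (Odc1), a well known MYC target, and the proline and glutamate route through ornithine aminotransferase (Oat). Arginine within proteins is methylated by enzymes such as Prmt1. When such proteins are degraded, asymmetric dimethylarginine is set free, which inhibits nitric oxide synthases, and the dimethylarginine dimethylaminohydrolases Ddah1 and Ddah2 are the family known for its removal. In normal liver, hepatocytes run the full urea cycle, of which Ass1, Asl and Arg1 are part.

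Ddah2 and Ass1 differed most between the groups, in opposite directions. Ddah2 was nearly silent in the Myc_Utx lines and well expressed in the Myc_p53 lines, whereas Ass1 was high in the Myc_Utx and low in the Myc_p53 lines. Ddah1, the other member of the Ddah family, was lower in Myc_Utx lines by a smaller amount, and Prmt1 was higher. Asl, Odc1 and Oat did not pass the test, and Arg1, Arg2 and Nos2 had too few counts to be tested. Of the 6 tested members other than Ddah2, 2 were called higher and 1 lower, with 0.05 as the limit of the adjusted p. Of all 11510 tested genes, 6.99% were called higher and 7.69% lower. The median log2 fold change of the 6 was 0.47, against -0.01 over all genes tested.

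**Figure D1:**
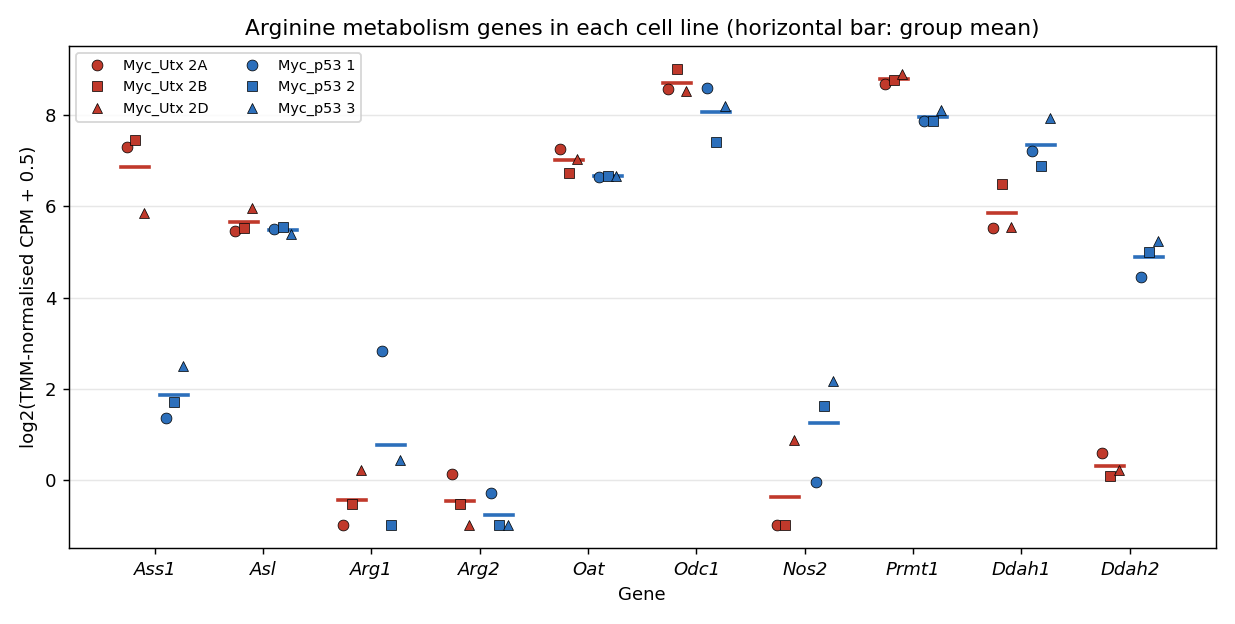
Level of each of the 10 genes in each of the 6 cell lines, as log2 of the normalised CPM plus 0.5; each symbol is 1 line, red for Myc_Utx and blue for Myc_p53, and horizontal bars are group means of the log2 values. The groups lie far apart for Ass1 and Ddah2, are separated by less for Ddah1 and Prmt1, and overlap for Asl and Odc1.

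The sequence just before the start is shown for the Ddah genes and Ass1, the members with the largest differences, so that their promoters can be compared. RefSeq promoter entries were found for 6 of the 10 genes (Ddah1, Ddah2, Ass1, Odc1, Prmt1 and Oat). The 150 bases before the gene start in the count table are given here in the build GRCm38.p6, all on the plus strand and read 5′ to 3′. They lie at chr17:35058885-35059034 for Ddah2, at chr3:145758525-145758674 for Ddah1 and at chr2:31470057-31470206 for Ass1. Capitals mark the GC box GGGCGG, a motif read by Sp factors, wherever it occurs on either strand.
Ddah2: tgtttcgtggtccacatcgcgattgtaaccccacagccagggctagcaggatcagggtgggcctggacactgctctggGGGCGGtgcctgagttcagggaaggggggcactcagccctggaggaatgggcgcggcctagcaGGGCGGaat
Ddah1: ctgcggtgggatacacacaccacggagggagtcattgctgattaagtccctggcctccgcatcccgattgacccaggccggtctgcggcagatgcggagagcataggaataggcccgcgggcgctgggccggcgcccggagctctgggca
Ass1: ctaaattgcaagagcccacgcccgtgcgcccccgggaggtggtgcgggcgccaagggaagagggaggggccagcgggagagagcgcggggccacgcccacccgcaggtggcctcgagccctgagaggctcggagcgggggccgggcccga
Ddah2 holds 2 GC boxes in these bases, 1 of them right before the start, while the stretches of Ddah1 and Ass1 hold none. Besides the GC box, the MYC E-box with the letters CACGTG was searched on both strands of the 250 bases before the RefSeq start. The TATA box was searched there as TATAAA. The CCAAT box was searched by the letters in its name, and none of the 4 motifs contains another. Ddah2 had 2 GC boxes and none of the other motifs, and Ddah1 had none of the 4 motifs. Ass1 had 1 E-box and 1 GC box, both outside the 150 bases shown, Odc1 had 4 GC boxes, Prmt1 had 1 E-box, 4 GC boxes and 3 CCAAT boxes, and Oat had 2 CCAAT boxes. Of 32851 promoters of the same length, 6.021% held the E-box, 32.74% the GC box, 12.37% the TATA box and 33.85% the CCAAT box in this window. The Ddah2 window held 7 CpG sites, near the median of 6 over all promoters, whereas Ddah1 held 17, Ass1 23 and Odc1 35. These matches describe letters only and say nothing of binding in these cells.

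Ddah2 (ENSMUSG00000007039, chromosome 17, 35059035 to 35062095, plus strand, GRCm38) had 5, 3 and 3 counts in Myc_Utx lines 2A, 2B and 2D, and 135, 171 and 262 counts in Myc_p53 lines 1, 2 and 3. As normalised values these were 0.997, 0.562 and 0.668 CPM against 21.3, 31.7 and 37.4 CPM. It passed the filter on low counts through the Myc_p53 lines alone. Every Myc_Utx line was at or just above 3 counts, the upper limit that a count of 0 would allow, and the lowest Myc_p53 line was far above all of them. The means were 0.742 ± 0.227 and 30.1 ± 8.13 CPM (SD, n = 3 each), and the fitted log2 fold change of Myc_Utx over Myc_p53 was -5.30 with a standard error (SE) of 0.37. From the pooled counts, 11 against 568 and corrected for library size, the level was 40.9 times as high in Myc_p53 lines, with an exact 95% interval of 22.7 to 82.4 that covers counting error only. The drop was the 80th lowest log2 fold change of the 11510 genes tested. Within a group the highest line exceeded the lowest by 1.78 times in Myc_Utx and 1.75 times in Myc_p53 lines, so the spread among lines was small beside the gap between groups. Leaving out any 1 line gave fold changes of -5.55 to -5.12 on the log2 scale.

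Ddah1 (chromosome 3, 145758675 to 145894277, plus strand) fell as well, but remained expressed in all lines. It had 227, 475 and 207 counts in Myc_Utx lines 2A, 2B and 2D, or 45.3, 88.9 and 46.1 CPM. In Myc_p53 lines 1, 2 and 3 it had 931, 635 and 1730 counts, or 147, 118 and 247 CPM. All Myc_Utx lines were below all Myc_p53 lines, with line 2B the nearest to them, and 20.9% of all tested genes showed a separation in this direction. The means were 60.1 ± 25.0 and 170 ± 67.6 CPM (n = 3 each), the log2 fold change was -1.50 (SE 0.38, 95% interval -2.42 to -0.59) and the adjusted p was 0.0477 (edgeR quasi-likelihood test). This call was close to the threshold: it was lost with offsets for transcript length (adjusted p = 0.0525, edgeR) and in all fits that left out 1 line, except that without Myc_p53 line 2 (range of adjusted p 0.0395 to 0.148). DESeq2 gave the same fold change with an adjusted p of 0.00114, where 11.8% of genes were called lower and 9.57% higher. In simulated data, 24.0% of the DESeq2 calls were false, against 3.31% of the calls of the edgeR fit reported. DESeq2 values here and below are therefore the less strict.

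Per length of transcript, the levels of the Ddah genes can be set side by side. Ddah1 had 11.4, 22.3 and 11.6 CPM per kb in Myc_Utx lines 2A, 2B and 2D, where Ddah2 had 0.63, 0.35 and 0.42 CPM per kb. In Myc_p53 lines 1, 2 and 3, Ddah1 had 36.9, 29.6 and 61.9 and Ddah2 had 13.4, 19.9 and 23.5 CPM per kb. Ddah1 was the more abundant transcript in all 6 lines. Ddah2 made up 5.22%, 1.55% and 3.50% of the sum of both in the Myc_Utx lines, and 26.6%, 40.2% and 27.5% in the Myc_p53 lines. The sum itself was 15.6 ± 6.17 CPM per kb in Myc_Utx and 61.7 ± 20.5 CPM per kb in Myc_p53 lines (n = 3 each). Since Ddah2 was chosen for its drop, this share and this sum are descriptions.

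**Figure D2:**
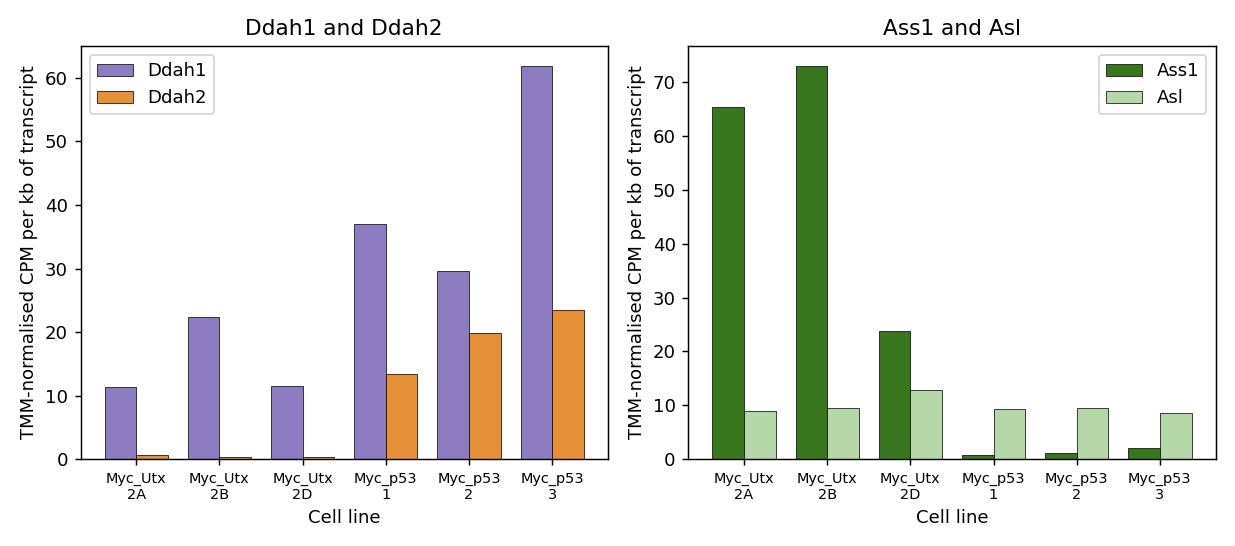
Levels of Ddah1 and Ddah2 (left) and of Ass1 and Asl (right) in each of the 6 cell lines, as normalised CPM per kb of transcript; each bar is the value of 1 line. Ddah2 bars are barely visible in the Myc_Utx lines, and Ass1 exceeds Asl in the Myc_Utx lines only, while Asl stays between 8.65 and 12.8 throughout.

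Ass1 (chromosome 2, 31470207 to 31520672, plus strand), which joins citrulline and aspartate and is the entry to arginine synthesis, rose in the Myc_Utx lines. It had 792, 942 and 257 counts in lines 2A, 2B and 2D, and 13, 15 and 36 counts in Myc_p53 lines 1, 2 and 3. These were 158, 176 and 57.2 CPM against 2.05, 2.78 and 5.13 CPM. Line 2D was the lowest of the Myc_Utx lines, and was still far above the highest Myc_p53 line; 21.1% of all tested genes had every Myc_Utx line above every Myc_p53 line. The means were 130.5 ± 64.1 and 3.32 ± 1.61 CPM (n = 3 each), with a log2 fold change of 5.27 (SE 0.58, 95% interval 3.88 to 6.67) and an adjusted p of 0.0127 (edgeR). Without line 2A the log2 fold change was 5.14 and the adjusted p 0.0614 (edgeR), and the call held without each of the other 5 lines.

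Asl (chromosome 5, 130011258 to 130029247, minus strand), which completes arginine synthesis by splitting argininosuccinate, did not pass the test. Its values were 43.5, 45.9 and 61.9 CPM in Myc_Utx lines 2A, 2B and 2D and 44.9, 46.0 and 41.8 CPM in Myc_p53 lines 1, 2 and 3. The groups overlapped, with a log2 fold change of 0.19 (SE 0.18, 95% interval -0.23 to 0.61) and an adjusted p of 0.479 (edgeR). Per length, the Ass1 level was 7.27, 7.69 and 1.85 times that of Asl in Myc_Utx lines 2A, 2B and 2D, and 0.0916, 0.121 and 0.246 times in Myc_p53 lines 1, 2 and 3. The ratio was thus above 1 in each Myc_Utx line and below 1 in each Myc_p53 line. In line 2D this depends on the annotated transcript lengths, 2414 bases for Ass1 and 4831 bases for Asl. Before division by length, Ass1 had 57.2 CPM there and Asl 61.9 CPM. An exact two-sided permutation test of the ratio over the 6 lines gave p = 0.1, the smallest it can give with 3 lines against 3.

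The arginases were near the limit of detection. Arg1, the liver arginase of the urea cycle, had 0, 1 and 3 counts in Myc_Utx lines 2A, 2B and 2D, and 42, 0 and 6 counts in Myc_p53 lines 1, 2 and 3. Only Myc_p53 line 1 held Arg1 above 1 CPM, at 6.64 CPM, and the groups overlapped. Arg2, the mitochondrial arginase, had 0 to 3 counts in every line. A count of 0 allows a level of up to 3 counts, which is 0.428 to 0.668 CPM in these libraries, so a difference in Arg2 was not detectable at this depth. Arg2 shares 285 bases with Vti1b on the opposite strand, and the strand setting of the counting was not given in the sources used here.

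The outlets of ornithine were expressed in all lines. Odc1 (chromosome 12, 17544794 to 17551505, plus strand), the rate-limiting enzyme of polyamine synthesis, had 380, 519 and 370 CPM in Myc_Utx lines 2A, 2B and 2D and 388, 170 and 295 CPM in Myc_p53 lines 1, 2 and 3. Myc_p53 line 2 was the lowest and line 1 lay among the Myc_Utx lines. The log2 fold change was 0.57 (SE 0.31, 95% interval -0.17 to 1.31) with an adjusted p of 0.233 (edgeR). Myc itself had 50.1 ± 9.74 CPM in Myc_Utx and 56.1 ± 15.04 CPM in Myc_p53 lines (log2 fold change -0.16, SE 0.24, adjusted p = 0.667 by edgeR), counted on the mouse gene; reads of the delivered MYC transgene were not separated here. Oat (chromosome 7, 132557478 to 132576398, minus strand), which turns ornithine towards proline and glutamate, had 153, 106 and 131 CPM in Myc_Utx lines 2A, 2B and 2D and 99.4, 100.5 and 101.5 CPM in Myc_p53 lines 1, 2 and 3. All Myc_Utx lines were above the Myc_p53 lines, line 2B by little. The log2 fold change was 0.37 (SE 0.15, 95% interval 0.01 to 0.73) and did not pass the test (adjusted p = 0.136, edgeR). The annotated span of Fgfr2 on the same strand holds all of Oat, and Fgfr2 had 25 to 446 counts per line. The ratio of Odc1 to Oat per length was 2.35 ± 0.90 in Myc_Utx and 1.96 ± 0.77 in Myc_p53 lines (n = 3 each, exact permutation p = 0.7).

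Nos2 was also too low to be tested. It had 0, 0 and 6 counts in Myc_Utx lines 2A, 2B and 2D and 3, 14 and 28 counts in Myc_p53 lines 1, 2 and 3, so the groups overlapped. Pooled over lines and corrected for library size, 6 against 45 counts gave a level 5.94 times as high in Myc_p53 lines, with an exact 95% counting interval of 2.53 to 17.0 that leaves out the spread among lines.

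Prmt1 (ENSMUSG00000109324, chromosome 7, 44975989 to 44986568, minus strand), the main enzyme that forms asymmetric dimethylarginine in proteins, was higher in the Myc_Utx lines. It had 410, 437 and 479 CPM in lines 2A, 2B and 2D and 235, 235 and 278 CPM in Myc_p53 lines 1, 2 and 3. The groups did not overlap, and lines within a group differed by at most 1.19 times. The means were 442 ± 34.8 and 249 ± 25.0 CPM (n = 3 each), with a log2 fold change of 0.83 (SE 0.12, 95% interval 0.54 to 1.11) and an adjusted p of 0.0165 (edgeR). The fold change stayed between 0.78 and 0.91 on the log2 scale when 1 line was left out, but the call was lost without Myc_Utx line 2A, 2B or 2D (adjusted p 0.0614 to 0.0678, edgeR). Per length, Prmt1 had 120 to 140 CPM per kb in Myc_Utx and 68.5 to 81.2 CPM per kb in Myc_p53 lines.

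The levels per length of the 7 tested members put Odc1 and Prmt1 at the top in all 6 lines. In the Myc_Utx lines, Odc1 (109 to 152 CPM per kb) and Prmt1 (120 to 140 CPM per kb) overlapped. Ass1 (23.7 to 73.1 CPM per kb) and Oat (45.0 to 64.7 CPM per kb) overlapped below them, followed by Ddah1 (11.4 to 22.3 CPM per kb) and Asl (9.0 to 12.8 CPM per kb), which also overlapped, with Ddah2 the lowest. In the Myc_p53 lines, Odc1 (49.9 to 114 CPM per kb) and Prmt1 (68.5 to 81.2 CPM per kb) overlapped again and Odc1 reached into the range of Ddah1, as did Oat (42.1 to 43.0 CPM per kb). Ddah1 itself had a wide range (29.6 to 61.9 CPM per kb). Ddah2 (13.4 to 23.5 CPM per kb) lay above Asl (8.65 to 9.52 CPM per kb), and Ass1 (0.85 to 2.13 CPM per kb) was the lowest. The places of Ddah2 and Ass1 at the bottom were therefore exchanged between the genotypes.

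Most detected macrophage markers were lower in the Myc_Utx lines, the direction also seen for Ddah2 and Ddah1. The summed level of 21 macrophage markers was 38.1 to 56.8 CPM in Myc_Utx and 66.7 to 144 CPM in Myc_p53 lines. Most of the Myc_Utx sums was Cd14, with 53.2, 34.3 and 32.3 CPM in lines 2A, 2B and 2D. In Myc_p53 lines 1, 2 and 3, Cd14 had 19.3, 18.9 and 21.7 CPM. Of the 21, 8 were tested, 6 of them were called lower in Myc_Utx lines (Csf1r, C1qa, C1qb, C1qc, Lyz2 and Mpeg1) and 1 higher (Cd14). Without overlap, 11 of the 21 lay below and 2 above (Cd14, and Cx3cr1 with at most 3 counts per line). Of all tested genes, 20.9% lay below and 21.1% above. The 6 called lower had 0 to 5 counts in the Myc_Utx lines and passed the filter on low counts through the Myc_p53 lines alone. Their direction was thus fixed by the filter and the count is a description. Csf1r, the receptor for macrophage colony stimulating factor, had 0, 1 and 0 counts in Myc_Utx lines 2A, 2B and 2D and 259, 39 and 243 counts in Myc_p53 lines 1, 2 and 3. Lyz2, a lysozyme of myeloid cells, had 0, 5 and 0 counts against 204, 104 and 337 counts. The Kupffer cell markers Clec4f, Vsig4 and Timd4 were at 0 in all 6 lines, and Ptprc, the pan-leukocyte gene, had 1 to 3 counts in Myc_p53 and 0 in Myc_Utx lines. Myc_p53 line 2 had the fewest Csf1r and Lyz2 counts of its group. Its level was the middle value of the group for Ddah2 (31.7 CPM) and Nos2 (2.59 CPM) and the lowest for Ddah1 (118 CPM). The part of such cells in the values of Ddah2, Ddah1 and Nos2 was not tested, and in these bulk samples fewer cells of a type and less RNA per cell cannot be told apart. Endothelial markers summed to 2.79 to 4.82 CPM in all lines, and the sums of cholangiocyte markers (554 to 1463 CPM in Myc_Utx, 168 to 1564 CPM in Myc_p53) and of stellate and fibroblast markers (134 to 385 CPM in Myc_Utx, 31.6 to 644 CPM in Myc_p53) overlapped between the groups. Some single markers within these lists did not overlap. Krt19, a bile duct keratin, had 234, 25 and 129 counts in Myc_Utx lines 2A, 2B and 2D and 2088, 325 and 2468 counts in Myc_p53 lines 1, 2 and 3 (log2 fold change -3.22, SE 0.95, adjusted p = 0.0653 by edgeR and 0.0157 by DESeq2). Krt7, another bile duct keratin, had 0 to 2 counts in Myc_Utx and 3 to 459 counts in Myc_p53 lines. Hnf4a, a hepatocyte transcription factor, had 0 to 3 against 8 to 64 counts, and Dcn, a fibroblast proteoglycan, had 0 to 3 against 9 to 109 counts. Apoa1 of the hepatocyte list lay above in Myc_Utx lines, at 3 to 5 against 0 to 2 counts. Other cholangiocyte and fibroblast markers overlapped but had higher means in Myc_Utx than in Myc_p53 lines. These were Sox9 (49.0 against 25.5 CPM), Spp1 (807 against 695 CPM), Pdgfrb (187 against 94.0 CPM) and the barely detected Rgs5. The remaining markers of the cholangiocyte list and of the stellate and fibroblast list had lower means in Myc_Utx lines or were at 0 in both groups. The part of any of these markers in the values of the members was not tested either. Markers of the lists that overlap are named here after their values were seen.

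Of the 10 nearest tested neighbours of Ddah2 on chromosome 17, 9 did not pass the test. Ddah2 begins 285 bases after the end of Clic1, a chloride channel gene on the same strand, which had 219 ± 37.5 CPM in Myc_Utx and 158 ± 19.8 CPM in Myc_p53 lines (log2 fold change 0.47, SE 0.16, adjusted p = 0.0946 by edgeR). The 5 tested genes on each side have starts from 89.8 kb before to 76.1 kb after that of Ddah2. Of them 1 was called, where 6.99% of all tested genes were called higher and 7.69% lower. This was Hspa1l, a heat shock gene with 3 to 5 counts in Myc_Utx and 11 to 16 counts in Myc_p53 lines and a fitted log2 fold change of -1.57 (SE 0.37). It passed the filter on low counts through the Myc_p53 lines alone, so it could only be called lower. Its pooled counts, 11 against 42, gave a level 3.03 times as high in Myc_p53 lines (exact 95% counting interval 1.53 to 6.52). The other 9, Hspa1a, Lsm2, Vars, Clic1, Abhd16a, Csnk2b, Gpank1, D17H6S53E and Bag6, had log2 fold changes between -0.17 and 0.47. Hspa1a has a near-identical copy, so its counts are uncertain. No other annotated gene overlaps Ddah2.

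**Figure D3:**
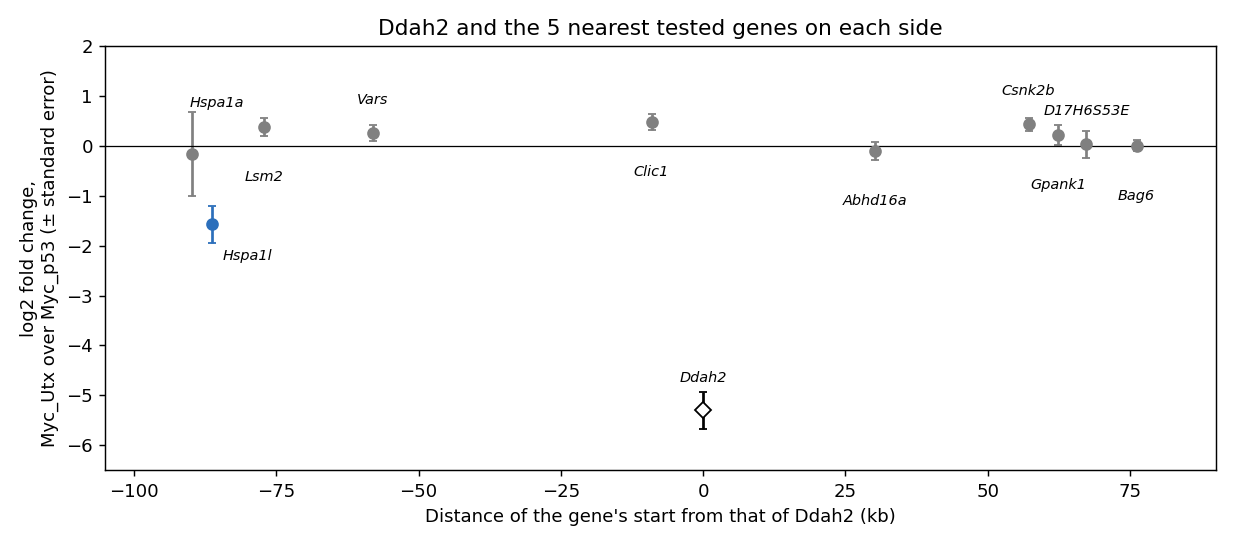
Log2 fold change of Myc_Utx over Myc_p53 lines, with its standard error, for Ddah2 (open diamond, not tested) and the 5 nearest tested genes on each side, against the distance of each gene's start from that of Ddah2 in kb. Ddah2 lies at -5.30, Hspa1l (blue, called lower) at -1.57, and the other genes (grey, not called) between -0.17 and 0.47.

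The genes whose pattern over the 6 lines was most like that of Ddah2 were Arl5a (Pearson r = 0.999), Zgpat (0.998), Stard13 (0.997), Usp33 (0.996) and Mex3a (0.996), by the correlation of log2(CPM + 0.5) among the 9484 genes that averaged 50 counts or more. The points share their libraries and fall into the 2 groups, so such values describe the split between the groups, and 255 genes had an r above 0.95. Arl5a had 101, 96.1 and 94.6 CPM in Myc_Utx lines 2A, 2B and 2D and 161, 171 and 173 CPM in Myc_p53 lines 1, 2 and 3. Its fold change was far smaller than that of Ddah2, at -0.79 on the log2 scale, as were those of Zgpat (-0.66), Stard13 (-1.74), Usp33 (-0.58) and Mex3a (-1.14).

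The rest of the arginine pathway was followed with 65 further genes in 9 lists, of which 49 were tested. Of these, 7 were called higher and 4 lower in Myc_Utx lines, 16 lay above and 7 below without overlap, and the median log2 fold change was 0.14. As shares of the 49, 14.3% were called higher and 8.16% lower, against 6.99% and 7.69% of all tested genes, and 32.7% lay above and 14.3% below without overlap, against 21.1% and 20.9%. Among the genes called higher were Slc25a15, Spr, Qdpr, Amd1, Srm and Dhps, and those called lower were Slc7a3, Slc38a9, Azin1 and Gatsl2. Slc7a3 is counted among the 4 called lower, though it passed the filter on low counts through the Myc_p53 lines alone. It could therefore only be called lower, and the share called lower is a description. The share below without overlap is a description too, since it includes Slc7a3 and Gch1, which would not have passed the filter without their Myc_p53 values. The count of 7 was 4 under 4 other settings of the analysis, 5 with no filter and 10 with DESeq2. Both counts were 0 without Myc_Utx line 2A, 2B or 2D or Myc_p53 line 3, were 3 and 2 without Myc_p53 line 1, and were 8 and 6 without Myc_p53 line 2.

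**Figure D4:**
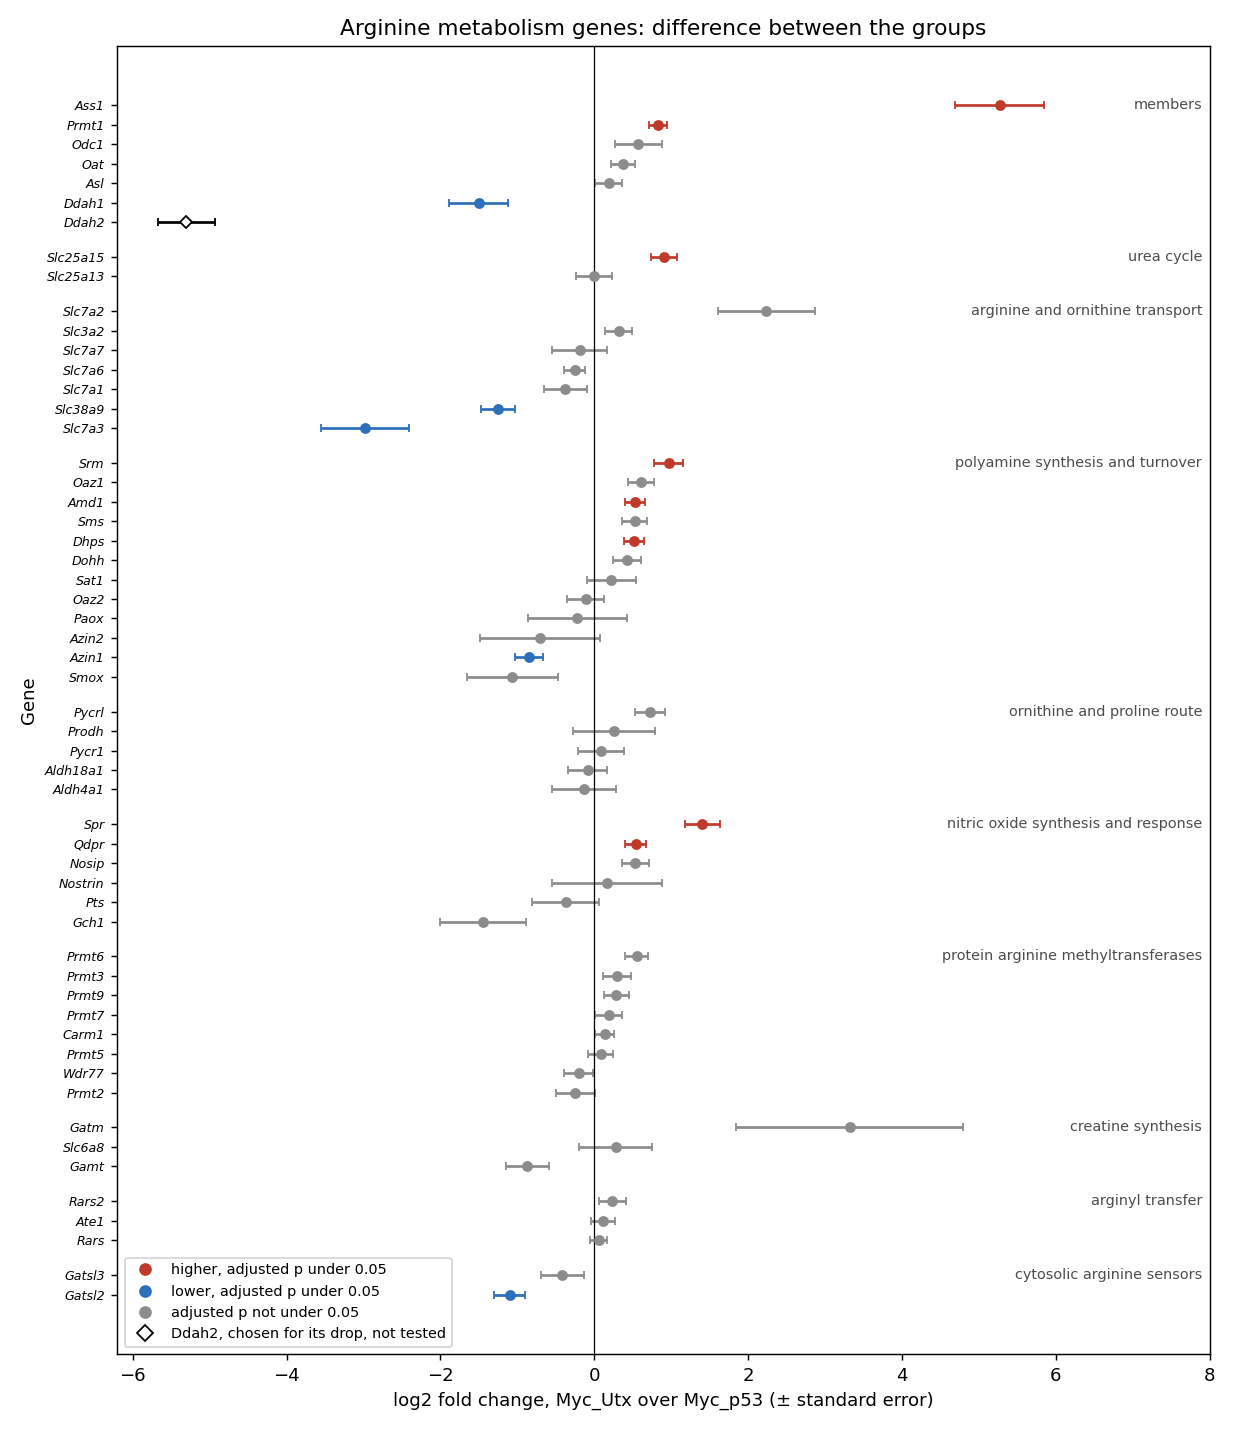
Log2 fold change of Myc_Utx over Myc_p53 lines, with its standard error, for the 7 tested members and the tested genes of the other lists, sorted within each list, with 1 called gene not drawn; red is called higher, blue called lower and grey not called at an adjusted p under 0.05, and the open diamond is Ddah2, which was not tested. Ass1 and Ddah2 lie at 5.27 and -5.30, and the other called genes lie between -2.98 and 1.40.

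In the urea cycle list, 2 of 7 genes were tested. Slc25a15, the mitochondrial ornithine carrier, rose from 25.3 ± 3.48 CPM in Myc_p53 to 47.6 ± 4.91 CPM in Myc_Utx lines (log2 fold change 0.91, SE 0.17, adjusted p = 0.0252 by edgeR). Slc25a13, the aspartate and glutamate carrier that supplies the aspartate used by Ass1, had 58.0 ± 6.87 CPM in Myc_Utx and 58.2 ± 16.7 CPM in Myc_p53 lines (adjusted p = 0.988, edgeR). Cps1, Otc, Nags, Slc25a2 and Agmat had at most 2 counts in any line, so differences in these genes were not detectable at this depth.

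In the transport list, 7 of 9 genes were tested, none were called higher and 2 were called lower. Of all tested genes, 6.99% were called higher and 7.69% lower. Slc7a3, a cationic amino acid transporter, had 2 to 3 counts in Myc_Utx and 10 to 38 counts in Myc_p53 lines, with a fitted log2 fold change of -2.98 (SE 0.57). It passed the filter on low counts through the Myc_p53 lines alone, so it could only be called lower. Its pooled counts, 8 against 85, gave a level 8.42 times as high in Myc_p53 lines (exact 95% counting interval 4.08 to 20.1). Slc38a9, the lysosomal arginine transporter that reports arginine to mTORC1, fell from 27.5 ± 5.59 CPM in Myc_p53 to 11.5 ± 1.09 CPM in Myc_Utx lines (log2 fold change -1.25, SE 0.22, adjusted p = 0.0223 by edgeR). Slc7a1, the main arginine importer of many cells and the most abundant of the list by mean CPM over all 6 lines, had 241 ± 23.9 CPM in Myc_Utx and 313 ± 110 CPM in Myc_p53 lines (adjusted p = 0.370, edgeR). Slc7a2, another arginine transporter, is named here after its values were seen: it had 229, 67.4 and 131 CPM in Myc_Utx lines 2A, 2B and 2D against 15.5, 55.0 and 20.4 CPM in Myc_p53 lines 1, 2 and 3, and its log2 fold change of 2.24 (SE 0.63) had an adjusted p of 0.0585 with edgeR and 0.000932 with DESeq2.

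The list of cytosolic arginine sensors holds the Castor family. Castor1, named Gatsl3 here, releases its hold on mTORC1 signalling when it binds arginine, and its relative Castor2 is named Gatsl2 here. Gatsl2 had 12.6, 17.2 and 14.03 CPM in Myc_Utx lines 2A, 2B and 2D and 34.1, 27.2 and 32.7 CPM in Myc_p53 lines 1, 2 and 3. The groups did not overlap, and the log2 fold change was -1.10 (SE 0.20, adjusted p = 0.0227 by edgeR). Both tested genes of this list lay below in Myc_Utx lines, where 20.9% of all tested genes did, and Gatsl3, at -0.42, was not called.

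Among 12 tested polyamine genes, 3 were called higher and 1 lower, where 6.99% and 7.69% of all tested genes were. Srm, spermidine synthase, had 320, 411 and 483 CPM in Myc_Utx lines 2A, 2B and 2D and 240.2, 192 and 189 CPM in Myc_p53 lines 1, 2 and 3 (log2 fold change 0.96, SE 0.18, adjusted p = 0.0257 by edgeR). Amd1, which makes the aminopropyl donor for spermidine and spermine, rose by 0.53 on the log2 scale (SE 0.14, adjusted p = 0.0487), and Dhps, which uses spermidine to modify the factor eIF5A, by 0.51 (SE 0.13, adjusted p = 0.0484), both near the threshold of the edgeR test. Azin1, which protects Odc1 from antizyme, fell from 227 ± 32.8 CPM in Myc_p53 to 126 ± 23.8 CPM in Myc_Utx lines (log2 fold change -0.85, SE 0.18, adjusted p = 0.0310 by edgeR). The median of the list was 0.32.

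In the nitric oxide list, 6 of 13 genes in the table were tested and 2 were called higher, where 6.99% of all tested genes were. Both act on tetrahydrobiopterin, the cofactor of nitric oxide synthases and of aromatic amino acid hydroxylases. The other genes of that cofactor on the list did not pass the test and had values below 0: Gch1, which starts its synthesis, had 1.39 ± 0.83 CPM in Myc_Utx and 3.87 ± 1.64 CPM in Myc_p53 lines without overlap (log2 fold change -1.44, SE 0.56, adjusted p = 0.123 by edgeR), and Pts, the next enzyme, had a log2 fold change of -0.37 (SE 0.44, adjusted p = 0.580 by edgeR). They are named after their values were seen. Gch1 had 3, 12 and 6 counts in Myc_Utx lines 2A, 2B and 2D and 20, 31 and 19 counts in Myc_p53 lines 1, 2 and 3. Without its Myc_p53 values it would not have passed the filter on low counts, so its lack of overlap is a description. Spr, sepiapterin reductase, had 60.8, 65.3 and 58.6 CPM in Myc_Utx lines 2A, 2B and 2D and 30.0, 16.9 and 22.8 CPM in Myc_p53 lines 1, 2 and 3 (log2 fold change 1.40, SE 0.23, adjusted p = 0.0188 by edgeR). Qdpr, which recycles the cofactor, rose by 0.54 on the log2 scale (SE 0.14, adjusted p = 0.0477, edgeR). Nosip, a nitric oxide synthase interacting protein and the most abundant of the list by CPM, had 77.3 ± 14.5 and 53.4 ± 6.40 CPM in Myc_Utx and Myc_p53 lines (adjusted p = 0.0901, edgeR).

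In the ornithine and proline list, Aldh18a1, which makes the precursor shared by proline and ornithine, had 231 ± 30.1 and 245 ± 79.5 CPM in Myc_Utx and Myc_p53 lines (adjusted p = 0.834, edgeR).

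None of the 8 other tested genes of the protein arginine methyltransferase list were called, and their log2 fold changes ran from -0.25 to 0.55. Prmt5, which forms symmetric dimethylarginine and was the most abundant by CPM of the list, had 261 ± 41.9 CPM in Myc_Utx and 246 ± 29.9 CPM in Myc_p53 lines (log2 fold change 0.08, SE 0.16, adjusted p = 0.741 by edgeR). None of the 3 tested creatine genes and none of the 3 arginyl transfer genes were called either. Slc6a8, the creatine transporter, had 50.2 ± 13.95 and 41.3 ± 23.6 CPM (adjusted p = 0.703, edgeR), and Rars, the arginyl-tRNA synthetase, had 218 ± 6.85 and 209.8 ± 21.4 CPM (adjusted p = 0.735, edgeR), in Myc_Utx and Myc_p53 lines. Gatm, which starts creatine synthesis from arginine, is named after its values were seen: line 2A held 775 counts and the other 5 lines 10 to 74 counts, so its log2 fold change of 3.32 (SE 1.47, adjusted p = 0.163 by edgeR) rests on that line.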

How the data were processed

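RNA-seq of 6 primary mouse liver cancer cell lines (3 Myc_Utx, 3 Myc_p53) was analysed from the raw counts per Ensembl gene that the authors deposited, without normalization, together with a transcript length in bases. The submitters' processing notes name Trimmomatic 0.36, STAR 2.5.3a, featureCounts 1.6.3, DESeq2 1.20.0 and the builds GRCm38 and mm10. The methods of the study name HTSeq, a human build and, in place of Utx, an Mll3 guide for this experiment, whereas the labels name Myc_Utx and Myc_p53, which were used here. How reads on shared sequence or either strand were counted was not given in the sources used here.

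The members and gene lists were chosen with earlier results of these data known. Groups follow the genotype label. The filter filterByExpr of edgeR 4.0.16 (R 4.3.3; minimum count 10) kept 11510 genes, which were scaled by TMM and tested together by quasi-likelihood F, and p-values were adjusted by Benjamini-Hochberg over all of them. Calls used an adjusted p under 0.05, and SE was taken as |log2 fold change|/√F. CPM values are counts scaled to TMM-normalised library sizes, and CPM per kb divides by the transcript length in the table. The script was tested on simulated counts with 200 changed genes, where 3.31% of the edgeR calls and 24.0% of the DESeq2 calls were false. The p-values measure the spread among 3 lines per group, whose mice of origin were not given. Ratios were compared by exact two-sided permutation tests. Replicates correlated at r = 0.945 to 0.952 within Myc_Utx and 0.881 to 0.939 within Myc_p53 (log2(CPM + 0.5), tested genes).

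Genes named are the members, every called gene and the most abundant gene of each pathway list by mean CPM over all lines, the 5 genes most like Ddah2, the 5 tested neighbours on each side, Kdm6a, Myc, and markers of a list whose groups do not overlap; exceptions are said in place. Some results under this rule are not reported here. Of 70 symbols in the pathway lists, 65 are in the table, the other 5 being alternative symbols. Promoter sequences are from RefSeq (GRCm38.p6). Alternatives were no filter, at least 10 counts in every line, DESeq2 size factors, total counts only, offsets for transcript length (natural splines with 5 degrees of freedom, MASS 7.3.60.0.1), DESeq2 1.42.0, and leaving out each line in turn.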

Additional observations from a re-analysis of the deposited data

How the results depend on the processing

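No paired analysis was possible because the lines are described as independent and their replicate names (2A, 2B and 2D against 1, 2 and 3) give no pairs. No log2 fold change of a tested member changed sign in any alternative run, and Ddah2 could not be fitted with at least 10 counts in every line. The other 5 fits on all lines gave -5.55 to -5.27 for Ddah2. With 1 line left out, the members called higher numbered 0 to 2 (0 without line 2A, 1 without 2B or 2D) and those called lower 0 to 1 (0 without 2A, 2B, 2D, or Myc_p53 line 1 or 3). With offsets for transcript length no member was called lower (0, against 1). The pathway genes called higher, 7 in the fit reported, were 4 with at least 10 counts in every line, 4 with DESeq2 size factors, 4 with total counts only and 4 with length offsets, 5 with no filter and 10 with DESeq2. They ran from 0 to 8 with 1 line left out, and those called lower from 0 to 6. Both were 0 without 2A, 2B, 2D or Myc_p53 line 3, and without Myc_p53 line 1 they were 3 and 2, and without Myc_p53 line 2 they were 8 and 6. Calls over all genes fell alongside, to 3 higher and 1 lower without 2A (3499 genes at an unadjusted p under 0.05), 43 and 38 without 2B, 43 and 28 without 2D, 63 and 57 without Myc_p53 line 3, and 481 and 627 without Myc_p53 line 1, and rose to 836 and 1118 without Myc_p53 line 2, against 805 and 885 with all lines. The cause was not tested. Without the filter the all-gene median moved to -0.23 on the log2 scale. Depth limits Arg1, Arg2, Nos2 and the Myc_Utx values of Ddah2, which rest on 3 to 5 counts per line.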
